A study of Homo sapiens with 9 samples.

Results

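The genes described here are 39 that encode the enzymes and transporters of glycolysis, together with genes known to be induced by low oxygen. They were chosen by name, as the probes whose RefSeq accession maps to a listed gene. No measured value entered this rule, but the list was chosen with earlier results of these data known. Of the 39 genes, 38 had such a probe among the 19479 genes that could be named on the array, and 37 were tested among 16083 tested genes. ALDOA, an aldolase, had no probe matched to it. CA9, a carbonic anhydrase of the cell surface, was too dim to test.

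The study knocked down SmcHD1, a chromosomal protein of the SMC family, in HEK293, an established line of human embryonic kidney origin. Retroviral vectors carried 1 of 3 hairpins, shRNA 3 for the group KD3, shRNA 4 for KD4 and the control NC5 for CTL. Infected cells were kept under puromycin selection and grown as stable lines in DMEM with fetal bovine serum. Each group was measured on 3 one-colour Agilent arrays. All 3 groups therefore carry a retroviral shRNA vector, and KD3 and KD4 are compared with the same CTL arrays. The methods call the arrays biological triplicates, but the sources used here do not say whether they came from separate infections, so that p-values measure the spread between these samples.

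Glycolysis splits glucose into pyruvate in the cytosol, and cells that keep pyruvate out of the mitochondria reduce it to lactate. When oxygen is scarce, the hypoxia-inducible factors (HIF) are no longer hydroxylated and degraded, and they switch on most glycolytic genes together with genes for blood vessel growth, mitophagy and the hydroxylases that end the response. HEK293 cells in culture rely heavily on glycolysis.

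The arrays were alike in quality. Their median processed signals ran from 120 to 181, and between 75.1% and 79.8% of probes were well above background. SMCHD1 itself was lower on every knock-down array than on any CTL array, with a mean log2 ratio to CTL of -0.97 for KD3 and -1.53 for KD4 (the log2 ratio is the difference of mean log2 signals, knock-down minus CTL, and SE below is its standard error). All 10 HEK293 markers were well above background on all 9 arrays, although PAX2, NEFM, INA and NEFL fell and SOX11 rose in both knock-downs. Of the 6 fibroblast markers COL1A1, DCN and LUM were well above background on all 9 arrays and COL1A2, COL3A1 and FAP on none, and COL1A1 fell in KD3, where the summed signal of the 6 fibroblast markers was 567 to 620 against 707 to 828 in CTL and 738 to 793 in KD4. The summed signal of the 5 endothelial markers was 156 to 184 in KD3, 172 to 189 in KD4 and 194 to 208 in CTL. VWF and CDH5 were well above background on all 9 arrays and PECAM1 on none, and VWF fell in KD3 (log2 ratio -0.82, adjusted p = 0.000832) and in KD4 (log2 ratio -0.69, adjusted p = 0.00144). The part of these markers in the results was not tested.

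Most glycolytic and hypoxia-induced genes kept their level within 1.8-fold in both knock-downs, and those that moved mostly fell. Few of all genes tested differed at least 1.8-fold with an adjusted p under 0.05, 4.44% in KD3 and 5.59% in KD4. More of these were lower than higher. The signal of PGAM1, a phosphoglycerate mutase, rose about 3-fold, the only rise among the 37 tested genes to pass the test. The probe of PGAM4, a close copy of PGAM1, rose 3.02-fold in KD3 and 3.04-fold in KD4. Which of the 2 genes gave rise to these signals was not tested. GPD2, the mitochondrial glycerol phosphate dehydrogenase, fell the most of the 37 tested genes, and ENO2, the neuronal enolase, fell by less. Smaller falls were measured for the glucose transporter SLC2A3, the phosphofructokinase PFKP, the regulatory enzyme PFKFB3, the kinase PDK1, the mitophagy gene BNIP3 and the stress gene NDRG1. LDHA, LDHB, PGK1, GAPDH, PKM and SLC2A1 did not pass the test in either knock-down. In RNA from a whole culture, fewer cells expressing a gene and less of its RNA per cell cannot be told apart.

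A gene was said to differ when its brightest probe had a Benjamini-Hochberg adjusted p under 0.05 by limma, over all tested probes, and to be called when the difference was also at least 1.8-fold. In KD3, 9 of the 37 genes differed from CTL (24.3%), 1 higher and 8 lower, where 25.2% of all genes tested did, 10.4% higher and 14.8% lower. In KD4, 14 of the 37 differed (37.8%), 1 higher and 13 lower, where 34.5% of all genes did, 14.7% higher and 19.8% lower. Counted in both directions together, these shares were near those of all genes. By direction they leaned lower than those of all genes, with 1 gene higher in each knock-down. Of the 37 log2 ratios, 25 were negative in each knock-down. The split by direction was not tested. Called were 3 of the 37 in KD3 (8.11%), 1 higher and 2 lower, beside 4.44% of all genes, 1.29% higher and 3.15% lower. In KD4 2 of the 37 were called (5.41%), 1 higher and 1 lower, beside 5.59% of all genes, 1.46% higher and 4.13% lower. The median log2 ratio of the 37 genes was -0.089 in KD3, where the median of all genes was -0.0145, and -0.11 in KD4, where it was 0.0022. With the methods' t-test on the same values and after Benjamini-Hochberg adjustment, 2 of the 9 genes in KD3 still passed, PGAM1 and BNIP3. In KD4 6 of the 14 did, PGAM1, GPD2, GPD1L, BNIP3, PDK1 and GPI. The share of all genes passing that test was not counted.

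**Figure D1:**
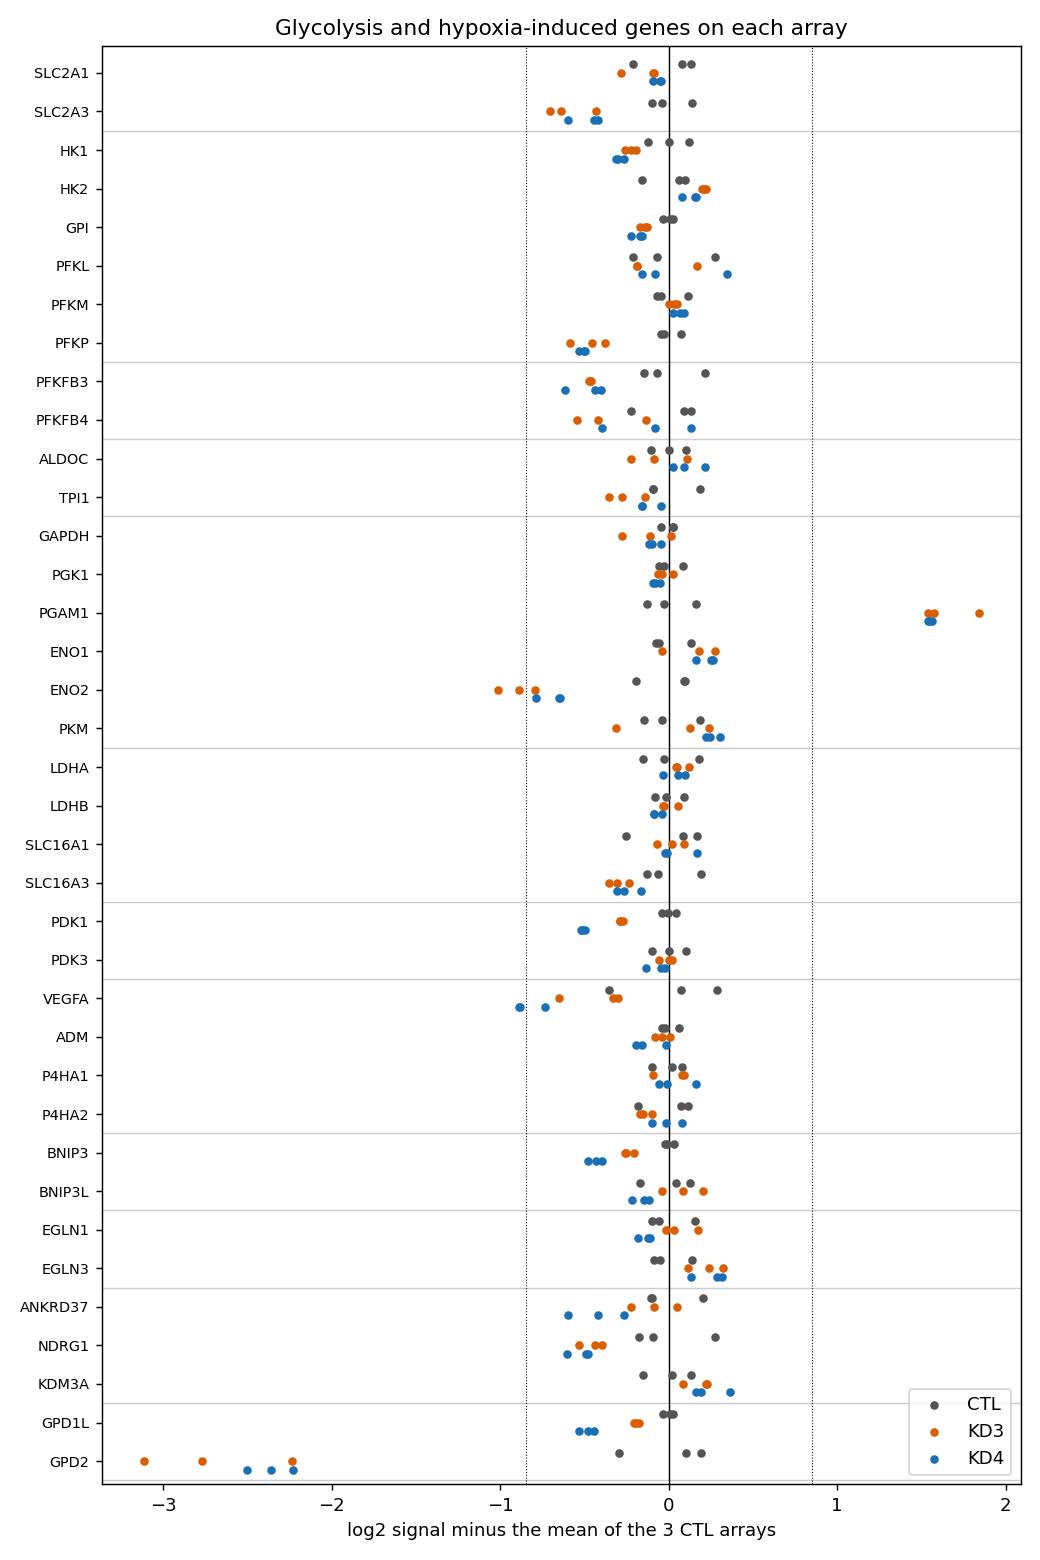
Normalized log2 signal of the 37 tested genes on each of the 9 arrays, minus the mean of the 3 CTL arrays, with genes ordered by role between grey lines and dotted lines at 1.8-fold. PGAM1 lies to the right on all 6 knock-down arrays, GPD2 far to the left, and most other genes lie within the dotted lines.

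**Figure D2:**
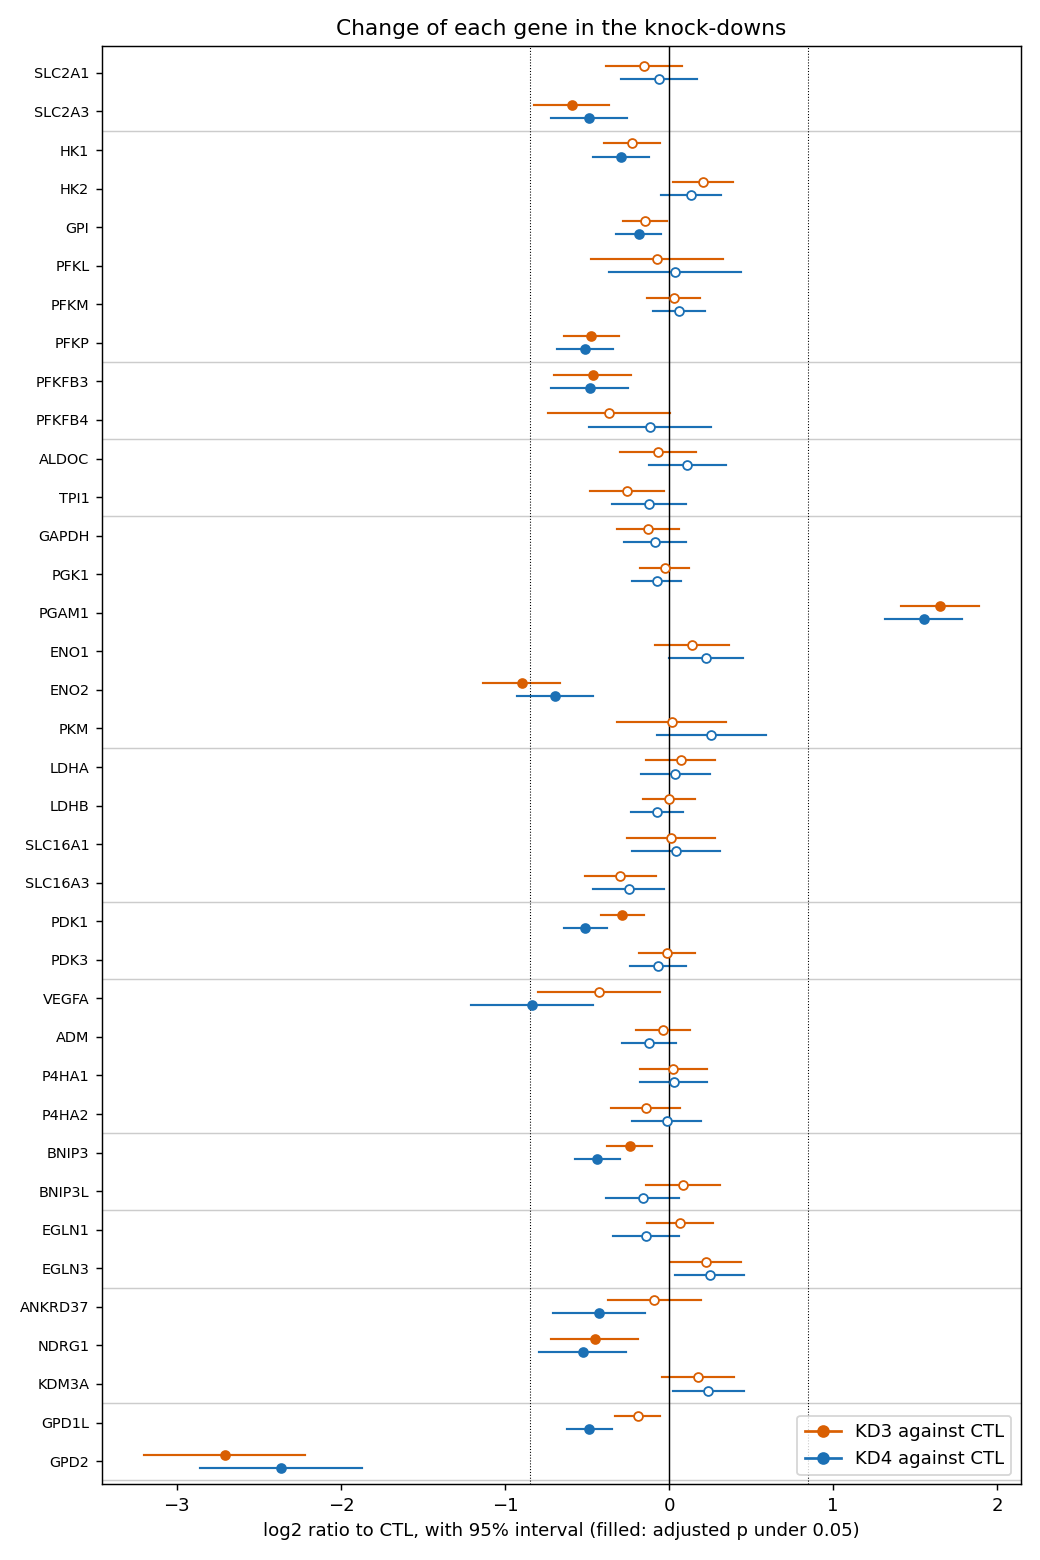
Log2 ratio of each of the 37 tested genes in KD3 and KD4 against CTL, with 95% intervals from limma over 3 arrays per group; filled points have an adjusted p under 0.05 and dotted lines mark 1.8-fold. In KD3 the intervals of 34 genes and in KD4 those of 33 genes lie inside the dotted lines.

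The promoters of 5 genes are shown because these genes span the range of responses. They run from PGAM1, whose signal rose, through GPD2, ENO2 and BNIP3, which fell, to LDHA. LDHA is a standard hypoxia target that did not pass the test. Each is the stretch of 250 bases before a transcript start, read on the gene's strand from RefSeq (GRCh38.p14). Capitals mark ACGTG, the core that HIF binds, and GCGTG, a variant of it, on either strand. An E-box, CACGTG, holds ACGTG on both strands. The windows are chr10:97427568-97427817 on the plus strand for PGAM1, chr2:156436129-156436378 on the plus strand for GPD2, chr12:6914330-6914579 on the plus strand for ENO2, chr10:131981924-131982173 on the minus strand for BNIP3 and chr11:18394313-18394562 on the plus strand for LDHA.
PGAM1 promoter: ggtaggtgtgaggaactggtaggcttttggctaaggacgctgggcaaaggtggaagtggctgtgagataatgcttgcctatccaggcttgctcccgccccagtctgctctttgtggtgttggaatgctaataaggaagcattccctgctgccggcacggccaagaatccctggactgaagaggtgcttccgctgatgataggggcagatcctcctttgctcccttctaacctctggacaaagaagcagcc
GPD2 promoter: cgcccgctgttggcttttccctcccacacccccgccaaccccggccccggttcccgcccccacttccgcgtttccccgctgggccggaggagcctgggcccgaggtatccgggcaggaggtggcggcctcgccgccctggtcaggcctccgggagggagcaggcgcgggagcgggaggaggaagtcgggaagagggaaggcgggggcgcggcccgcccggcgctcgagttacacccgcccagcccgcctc
ENO2 promoter: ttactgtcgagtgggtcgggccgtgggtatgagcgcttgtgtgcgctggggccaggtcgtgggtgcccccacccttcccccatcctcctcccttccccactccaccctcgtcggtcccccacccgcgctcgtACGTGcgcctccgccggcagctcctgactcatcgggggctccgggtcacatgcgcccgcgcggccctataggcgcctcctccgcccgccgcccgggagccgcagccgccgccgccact
BNIP3 promoter: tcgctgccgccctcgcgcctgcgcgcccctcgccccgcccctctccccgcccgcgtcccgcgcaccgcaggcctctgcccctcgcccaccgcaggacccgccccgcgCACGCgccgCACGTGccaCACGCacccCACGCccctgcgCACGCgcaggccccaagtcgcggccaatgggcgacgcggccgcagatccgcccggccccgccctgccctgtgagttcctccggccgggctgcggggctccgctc
LDHA promoter: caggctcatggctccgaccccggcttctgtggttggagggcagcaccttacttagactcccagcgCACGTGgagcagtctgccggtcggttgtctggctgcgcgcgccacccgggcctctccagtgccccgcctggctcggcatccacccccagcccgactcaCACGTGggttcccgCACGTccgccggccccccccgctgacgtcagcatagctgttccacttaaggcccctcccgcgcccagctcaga

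The windows shown for PGAM1 and GPD2, the genes with the largest changes, had no match to these letters, and neither did the other GPD2 window. Sequence outside the windows, such as before other transcript starts, was not searched. ENO2 had 1 match to ACGTG, BNIP3 had 2 matches to ACGTG and 4 to GCGTG, and the LDHA window shown had 5 matches to ACGTG. The other LDHA window had no match to ACGTG and 1 to GCGTG. Windows were found for 34 of the 39 genes, all but SLC2A3, SLC16A1, VEGFA, BNIP3L and NDRG1. ACGTG was in 38.7% of their 62 windows and in 18.5% of the 35116 RefSeq windows of the same length. By gene, 21 of the 34 had ACGTG in some window. GCGTG was in 32.3% and 32.2% of the windows. Windows of the same gene can overlap, and the list was made of glycolytic and known hypoxia-induced genes. The difference in shares was not tested. A match to these letters is a description of the sequence, and no binding was measured.

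Glucose enters the cell through the transporters SLC2A1 and SLC2A3 (GLUT1 and GLUT3). The SLC2A3 signal was 7.15, 6.91 and 6.97 on the CTL arrays, 6.57, 6.30 and 6.37 on the KD3 arrays, and 6.56, 6.41 and 6.59 on the KD4 arrays (normalized log2 signal, as for all levels below). Every knock-down array lay below every CTL array. SLC2A3 fell by 0.59 log2 units in KD3 (SE 0.101, adjusted p = 0.0044) and by 0.49 in KD4 (SE 0.101, adjusted p = 0.00791). A dimmer SLC2A3 probe gave -0.17 and -0.09, with adjusted p = 0.48 and 0.679. Over both probes the SLC2A3 log2 ratio was -0.38 in KD3 and -0.29 in KD4, and with normexp background correction it was -0.38 and -0.30. SLC2A1 had log2 ratios of -0.15 (95% interval -0.39 to 0.08) and -0.06 (95% interval -0.29 to 0.17), and neither passed the test.

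Of the 6 genes of upper glycolysis, PFKP, the platelet-type subunit of phosphofructokinase, differed in both knock-downs. Its CTL levels were 14.66, 14.54 and 14.56, its KD3 levels 14.01, 14.13 and 14.21, and its KD4 levels 14.09, 14.09 and 14.06. No knock-down array of PFKP reached a CTL array. The log2 ratio of PFKP was -0.47 in KD3 (SE 0.0739, adjusted p = 0.00298) and -0.51 in KD4 (SE 0.0739, adjusted p = 0.00152). Its other probe gave -0.34 in KD3, with an adjusted p of 0.0511, and -0.36 in KD4, with an adjusted p of 0.0341. The liver-type and muscle-type subunits PFKL and PFKM had log2 ratios between -0.07 and 0.06, none past the test.

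HK1, a hexokinase that traps glucose by phosphorylation, fell in KD4 by 0.29 log2 units (adjusted p = 0.0201), and had a log2 ratio of -0.23 in KD3 with an adjusted p of 0.0675. The fall of HK1 in KD4 lost its adjusted p when any 1 KD4 array was left out (0.0506 to 0.0634), and in KD3 the adjusted p became 0.0377 without CTL replicate 3. GPI, which turns glucose phosphate into fructose phosphate, differed in KD4 by -0.19 (adjusted p = 0.0469), and in KD3 it had a log2 ratio of -0.15 (adjusted p = 0.122). The GPI difference did not pass in KD4 when any 1 of the 9 arrays was left out (adjusted p up to 0.143), nor with 75th percentile scaling (0.114), normexp (0.058), the authors' log2 values (0.0667), no filter (0.0524), only the 2 groups compared (0.0869) or the slide as a block (0.0682). HK2, the inducible hexokinase, had log2 ratios of 0.21 and 0.13, which did not pass the test. A second HK2 probe was too dim to test.

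PFKFB3 and PFKFB4 make and remove the fructose bisphosphate that activates phosphofructokinase. PFKFB3 had CTL levels of 10.37, 10.09 and 10.02, KD3 levels of 9.70, 9.70 and 9.69, and KD4 levels of 9.72, 9.55 and 9.76. The knock-down arrays lay below the CTL arrays without overlap. PFKFB3 fell by 0.47 log2 units in KD3 (SE 0.103, adjusted p = 0.0144) and by 0.48 in KD4 (SE 0.103, adjusted p = 0.00904). A much dimmer PFKFB3 probe gave -0.63 in KD3 (adjusted p = 0.0639) and -0.66 in KD4 (adjusted p = 0.043). By the adjusted methods' t-test PFKFB3 passed in neither knock-down (0.216 in KD3 and 0.121 in KD4). Unadjusted, that test did not pass in KD3. PFKFB4 had log2 ratios of -0.37 and -0.11, with adjusted p = 0.159 and 0.638.

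Neither gene of triose formation that was tested passed the threshold. TPI1, triose phosphate isomerase, had CTL levels of 16.20, 15.92 and 15.92, KD3 levels of 15.66, 15.74 and 15.88, and KD4 levels of 15.86, 15.86 and 15.97. The KD3 levels lay below all CTL levels, while KD4 overlapped with CTL. The TPI1 log2 ratio was -0.26 in KD3 (SE 0.0986, adjusted p = 0.105) and -0.12 in KD4 (adjusted p = 0.399), and with normexp background correction the adjusted p in KD3 was 0.0216. ALDOC, an aldolase, had log2 ratios of -0.07 and 0.11. At an unadjusted p under 0.05 by limma, TPI1 passed in KD3 and neither gene did in KD4.

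The 6 genes of lower glycolysis include PGAM1, the only one of the 37 genes that rose past the test. PGAM1, which moves the phosphate of phosphoglycerate, had CTL levels of 13.37, 13.18 and 13.08. Its KD3 levels were 14.75, 14.79 and 15.05, and its KD4 levels were 14.77, 14.75 and 14.76. All 6 knock-down arrays lay well above the 3 CTL arrays. PGAM1 rose 3.14-fold in KD3 (log2 ratio 1.65, SE 0.104, adjusted p = 2.72e-05) and 2.93-fold in KD4 (log2 ratio 1.55, SE 0.104, adjusted p = 3.55e-05). Its other probe gave 2.73-fold in KD3 and 2.86-fold in KD4. PGAM4, a gene on the X chromosome copied from PGAM1 and close to it in sequence, was examined after the PGAM1 values were seen. The PGAM4 probe had CTL levels of 13.86, 14.05 and 13.57, KD3 levels of 15.57, 15.27 and 15.43, and KD4 levels of 15.46, 15.38 and 15.44. It rose 3.02-fold in KD3 (adjusted p = 9.78e-05) and 3.04-fold in KD4 (adjusted p = 7.4e-05). Because of their likeness, which of PGAM1 and PGAM4 gave rise to these signals was not tested, and the PGAM1 values are uncertain in this respect.

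ENO2, the enolase of neurons, had CTL levels of 9.49, 9.20 and 9.50, KD3 levels of 8.38, 8.60 and 8.51, and KD4 levels of 8.75, 8.61 and 8.75. All knock-down arrays lay below the CTL arrays. ENO2 fell to 0.536 of CTL in KD3 (log2 ratio -0.90, SE 0.102, adjusted p = 0.000597) and to 0.618 of CTL in KD4 (log2 ratio -0.69, SE 0.102, adjusted p = 0.00161), the latter less than 1.8-fold. Without KD3 replicate 1 the log2 ratio of ENO2 in KD3 was -0.84, and with normexp background correction it was -0.78. Both are also less than 1.8-fold. By the adjusted methods' t-test ENO2 passed in neither knock-down (0.07 in KD3 and 0.0724 in KD4). ENO1, the enolase of most tissues, had log2 ratios of 0.14 and 0.23, and its adjusted p in KD4 was 0.122, or 0.0244 with normexp background correction.

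GAPDH, PGK1 and PKM, which carry the middle and the last steps to pyruvate, did not pass the test. The 95% interval of the log2 ratio in KD4 was -0.28 to 0.10 for GAPDH, -0.23 to 0.07 for PGK1 and -0.07 to 0.59 for PKM. A change of 1.8-fold, which is 0.848 log2 units, lay outside all 3 intervals.

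None of the 4 genes of lactate handling (0%) differed by limma, where 25.2% of all genes tested did in KD3 and 34.5% in KD4. LDHA and LDHB, the subunits of lactate dehydrogenase, had log2 ratios of 0.07 and -0.002 in KD3 and of 0.04 and -0.07 in KD4. The 95% interval for LDHA in KD4 was -0.17 to 0.25. SLC16A1, a lactate carrier, had log2 ratios of 0.01 and 0.04. SLC16A3, the carrier of strongly glycolytic cells, had CTL levels of 6.33, 6.59 and 6.27, KD3 levels of 6.16, 6.09 and 6.04, and KD4 levels of 6.09, 6.23 and 6.13. Its knock-down arrays were below all CTL arrays, with a log2 ratio of -0.30 in KD3 (adjusted p = 0.0585) and -0.25 in KD4 (adjusted p = 0.0864). At an unadjusted p under 0.05, SLC16A3 alone of the 4 genes passed, in both knock-downs. In KD3 the adjusted p of SLC16A3 by limma was 0.049 without CTL replicate 3. It was also under 0.05 with 75th percentile scaling and with the authors' log2 values, at the lowest 0.035.

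The glycerol phosphate enzymes pass electrons from cytosolic NADH toward the mitochondria. GPD2, which sits on the mitochondrial inner membrane, had levels of 6.05, 6.53 and 6.45 in CTL, 3.57, 4.10 and 3.23 in KD3, and 4.11, 3.84 and 3.98 in KD4. GPD2 stood well above background on the 3 arrays of CTL, the 3 of KD4 and 2 of the 3 KD3 arrays. The log2 ratio of GPD2 was -2.71 in KD3 (SE 0.216, adjusted p = 0.000104) and -2.36 in KD4 (SE 0.216, adjusted p = 0.000159). A dimmer GPD2 probe was well above background on no knock-down array, and by it GPD2 was at least 7.17-fold lower in KD3 (adjusted p = 0.000117) and at least 6.74-fold lower in KD4 (adjusted p = 0.000136). Such a bound sets the CTL mean against the higher of the probe's own signal and the lowest signal well above background on each array. With normexp background correction, which adds an offset to every signal, the log2 ratio of GPD2 was -0.94 in both knock-downs.

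GPD1L, a relative of the cytosolic glycerol phosphate dehydrogenase, had CTL levels of 10.91, 10.93 and 10.87, KD3 levels of 10.70, 10.73 and 10.71, and KD4 levels of 10.37, 10.43 and 10.46. The 3 groups did not overlap. GPD1L fell in KD4 by 0.49 log2 units (SE 0.0602, adjusted p = 0.000737), and in KD3 its log2 ratio was -0.19 (adjusted p = 0.0561).

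**Figure D3:**
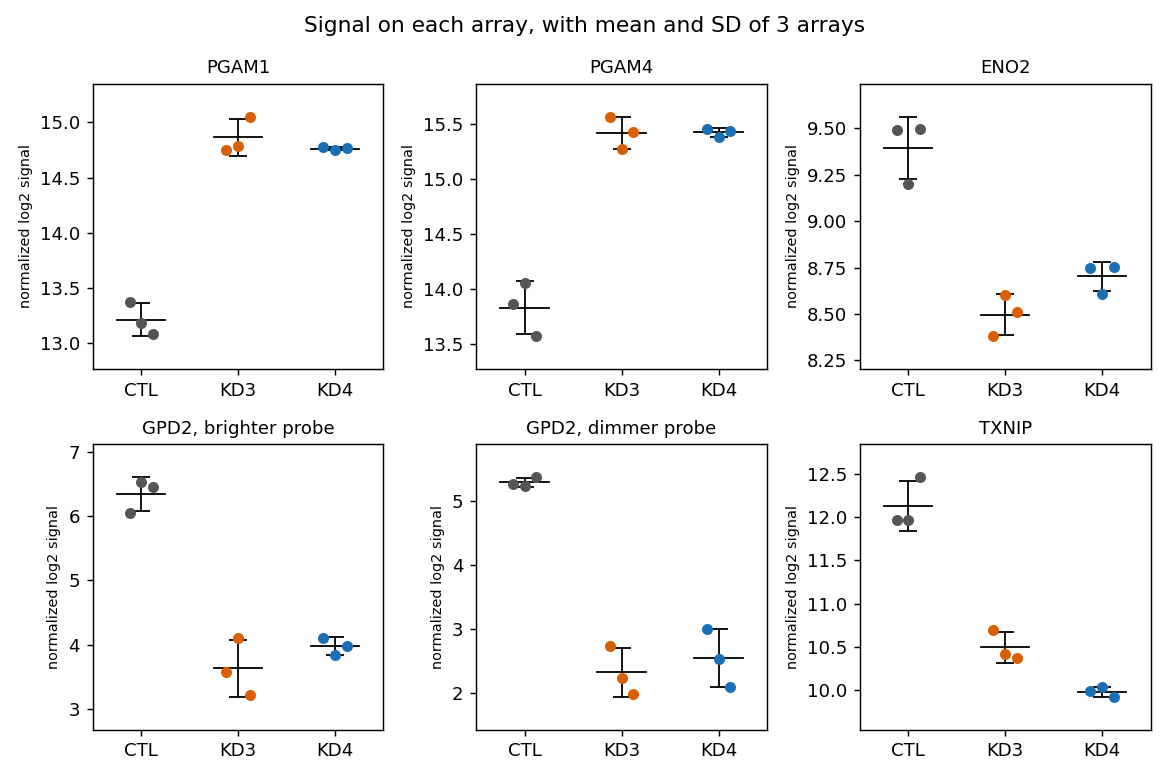
Normalized log2 signal on each array (points) with the mean and SD of 3 arrays (lines) for PGAM1, PGAM4, ENO2, both GPD2 probes and TXNIP, a panel each with its own axis. On each knock-down array PGAM1 and PGAM4 are higher, and ENO2, GPD2 and TXNIP lower, than on any CTL array.

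PDK1 and PDK3 phosphorylate pyruvate dehydrogenase and so hold pyruvate back from the mitochondria. PDK1 had CTL levels of 11.24, 11.27 and 11.31, KD3 levels of 10.98, 11.00 and 10.98, and KD4 levels of 10.76, 10.75 and 10.78. The groups lay apart, KD4 lowest. PDK1 fell by 0.28 log2 units in KD3 (SE 0.0582, adjusted p = 0.0103) and by 0.51 in KD4 (SE 0.0582, adjusted p = 0.000503). PDK3 had log2 ratios of -0.01 and -0.07.

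VEGFA, the growth factor of blood vessels, had CTL levels of 10.14, 10.57 and 10.78, KD3 levels of 10.20, 10.17 and 9.85, and KD4 levels of 9.61, 9.76 and 9.61. KD4 lay below all CTL arrays, while KD3 overlapped with CTL replicate 1. VEGFA fell in KD4 by 0.83 log2 units (SE 0.163, adjusted p = 0.00622), just under 1.8-fold, and in KD3 the log2 ratio was -0.43 (adjusted p = 0.104). Without CTL replicate 1 the VEGFA log2 ratio was -0.60 in KD3 (adjusted p = 0.0184) and -1.01 in KD4, and without KD4 replicate 2 it was -0.89 in KD4. The other VEGFA probe passed in both, with log2 ratios of -0.36 (adjusted p = 0.0349) and -0.71 (adjusted p = 0.00125).

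ADM, a peptide that widens vessels, and P4HA1 and P4HA2, the hydroxylases of collagen prolines, had log2 ratios between -0.14 and 0.03 in both knock-downs, and none passed the test. CA9 gave 2.10, 2.50 and 3.02 in CTL, 2.17, 2.51 and 3.15 in KD3, and 4.20, 3.33 and 1.88 in KD4. It was well above background on 0 CTL arrays, 1 KD3 array and 2 KD4 arrays, and no fold is given.

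BNIP3, a receptor that marks mitochondria for mitophagy, had CTL levels of 12.95, 12.91 and 12.91, KD3 levels of 12.67, 12.67 and 12.72, and KD4 levels of 12.49, 12.44 and 12.53. The groups lay apart in the order CTL, KD3, KD4. BNIP3 fell by 0.24 log2 units in KD3 (SE 0.0601, adjusted p = 0.0241) and by 0.44 in KD4 (SE 0.0601, adjusted p = 0.0012). In KD3 its adjusted p was between 0.05 and 0.078 when CTL replicate 1, CTL replicate 3 or any 1 KD3 array was left out. It was 0.0672 with 75th percentile scaling and 0.0755 with only the 2 groups compared. The related BNIP3L had log2 ratios of 0.08 and -0.16, which did not pass the test, and a second BNIP3L probe gave 0.18 in both.

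EGLN1 and EGLN3 are the prolyl hydroxylases that mark HIF for degradation and are themselves induced by it. EGLN3 had CTL levels of 7.53, 7.76 and 7.57, KD3 levels of 7.94, 7.86 and 7.73, and KD4 levels of 7.94, 7.75 and 7.91. Both knock-downs overlapped with CTL replicate 2. The EGLN3 log2 ratio was 0.22 in KD3 (SE 0.0931, adjusted p = 0.13) and 0.25 in KD4 (adjusted p = 0.0795). In KD4 the adjusted p was 0.0446 without CTL replicate 2 and 0.0489 with arrays scaled to the 75th percentile. EGLN1 had log2 ratios of 0.06 and -0.14.

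NDRG1, induced by hypoxia and other stresses, had CTL levels of 14.57, 14.20 and 14.12, KD3 levels of 13.76, 13.86 and 13.90, and KD4 levels of 13.80, 13.69 and 13.81. All knock-down arrays lay below the CTL arrays. The log2 ratio of NDRG1 was -0.45 in KD3 (SE 0.117, adjusted p = 0.0265) and -0.53 in KD4 (SE 0.117, adjusted p = 0.0109). In KD3 the adjusted p was 0.0548 to 0.0794 when any 1 KD3 array was left out and 0.0639 with only the 2 groups compared. By the methods' t-test NDRG1 passed in neither knock-down, even unadjusted. After adjustment that test gave 0.257 in KD3 and 0.172 in KD4. ANKRD37, a small ankyrin repeat protein, fell in KD4 by 0.43 log2 units (adjusted p = 0.0316) and had a log2 ratio of -0.09 in KD3. The adjusted p of ANKRD37 in KD4 was 0.0879 without CTL replicate 2, 0.0762 without KD4 replicate 2 and 0.106 without KD4 replicate 3, and it was 0.0545 with no filter and 0.051 with only the 2 groups compared. KDM3A, a histone demethylase, had log2 ratios of 0.18 and 0.24, with adjusted p = 0.24 and 0.095. With the slide as a block the adjusted p of KDM3A in KD4 was 0.0418.

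The knock-downs were also compared with each other. Between KD4 and KD3, 1 of the 37 genes differed (2.7%), where 3.25% of all genes tested did, 1.36% higher and 1.89% lower in KD4. None of the 37 (0%) was called, where 0.547% of all genes were, 0.28% higher and 0.267% lower. At an unadjusted p under 0.05 by limma 7 of the 37 genes passed, and by the unadjusted methods' t-test 4 did. The shares of all genes passing without adjustment were not counted, so these counts have nothing to be set against. The gene that differed was GPD1L, lower in KD4 by a log2 difference of -0.29 (SE 0.0602, adjusted p = 0.0437). It did not pass when any 1 of the 9 arrays was left out (adjusted p up to 0.145), nor with normexp (0.142), no filter (0.0602), only the 2 groups compared (0.0712), the slide as a block (0.0767) or the adjusted methods' t-test (0.183). All 37 genes had a 95% interval within 1.8-fold. The median log2 difference of the 37 genes was -0.0185, and that of all genes was 0.0121.

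Genes for the subunits and regulators of HIF itself moved in both directions. Of 12 such genes, 7 differed in KD3 (58.3%) and 7 in KD4 (58.3%), each with 3 higher and 4 lower, where 25.2% of all genes tested differed in KD3 and 34.5% in KD4. ARNT2, a partner subunit that pairs with HIF alpha subunits, had CTL levels of 11.59, 11.70 and 11.91, KD3 levels of 10.71, 10.76 and 10.70, and KD4 levels of 10.44, 10.59 and 10.48. All knock-down arrays were lower, and ARNT2 fell by 1.01 log2 units in KD3 (SE 0.0907, adjusted p = 0.00019) and by 1.23 in KD4 (SE 0.0907, adjusted p = 5.21e-05). A much dimmer ARNT2 probe overlapped between groups and gave -0.23 and -0.36, and over both probes the values were -0.62 and -0.80.

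HIF1AN, the asparagine hydroxylase that blocks HIF activity, moved the other way. Its levels were 6.04, 5.84 and 5.75 in CTL, 6.68, 6.78 and 6.92 in KD3, and 7.04, 6.87 and 6.94 in KD4. HIF1AN rose 1.89-fold in KD3 (adjusted p = 0.000499) and 2.1-fold in KD4 (adjusted p = 0.000176), and with normexp background correction its log2 ratio was 0.52 and 0.61 in place of 0.91 and 1.07. Of the alpha subunits, HIF1A rose in KD3 (log2 ratio 0.50, adjusted p = 0.0045) and gave 0.19 in KD4 (adjusted p = 0.136), while a dimmer probe gave 0.24 and 0.01, neither past the test. EPAS1 fell in both, by 0.48 log2 units. ARNT and VHL did not pass the test.

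Among the 24 tested genes of other isoforms and neighbouring glucose enzymes, 6 were higher and 2 lower in KD3, and 5 were higher and 3 lower in KD4. These are 33.3% of the list in each, beside 25.2% of all genes in KD3 and 34.5% in KD4. PCK2, the mitochondrial enzyme that makes phosphoenolpyruvate, was called. It had CTL levels of 8.41, 8.53 and 9.23, KD3 levels of 7.57, 7.57 and 7.16, and KD4 levels of 6.79, 6.85 and 6.71. PCK2 fell by 1.29 log2 units in KD3 (SE 0.207, adjusted p = 0.00342) and by 1.94 in KD4 (SE 0.207, adjusted p = 0.000358), with no overlap between groups. The adjusted methods' t-test gave 0.143 in KD3 and 0.0932 in KD4 for PCK2.

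None of the 11 genes of pyruvate entry to the mitochondria (0%) differed by limma, where 25.2% of all genes tested did in KD3 and 34.5% in KD4. At an unadjusted p under 0.05 none passed in KD3 and 5 passed in KD4, with no count made over all genes. The one with the largest mean change, the kinase PDK4, had log2 ratios of -0.36 (adjusted p = 0.17) and -0.38 (adjusted p = 0.123). Without KD4 replicate 2, which stood at 7.46 beside 6.82 and 6.84 on the other KD4 arrays, PDK4 gave -0.59 in KD4 (adjusted p = 0.00653) and its adjusted p in KD3 was 0.0299. Of the 7 pentose phosphate genes, 1 was higher and 2 lower in KD3 (42.9%, beside 25.2% of all genes), and 2 were lower in KD4 (28.6%, beside 34.5%). PGLS, the lactonase of that pathway, fell by 0.31 log2 units in KD3 (adjusted p = 0.0158) and by 0.41 in KD4 (adjusted p = 0.0032). Without CTL replicate 3 or KD3 replicate 2, PGLS had an adjusted p of 0.0514 or 0.0501 in KD3.

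Of 25 further hypoxia-induced genes that were tested, 2 were higher and 7 lower in KD3 (36%, beside 25.2% of all genes), and 3 were higher and 7 lower in KD4 (40%, beside 34.5%). The list had a median log2 ratio of -0.0996 in KD3, where that of all genes was -0.0145, and of -0.086 in KD4, where it was 0.0022. DDIT4, an inhibitor of mTOR signalling, had CTL levels of 14.40, 14.40 and 14.71, KD3 levels of 13.56, 13.59 and 13.49, and KD4 levels of 12.90, 12.94 and 12.89. The 3 groups lay apart, and DDIT4 fell by 0.96 log2 units in KD3 (SE 0.0933, adjusted p = 0.000281) and by 1.59 in KD4 (SE 0.0933, adjusted p = 1.81e-05). The adjusted methods' t-test gave 0.0954 in KD3 and 0.0522 in KD4 for DDIT4.

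HMOX1, which degrades heme, rose 2.29-fold in KD3 (adjusted p = 2.4e-05) and 2.31-fold in KD4 (adjusted p = 2.04e-05). Its levels were 12.51, 12.64 and 12.45 in CTL, 13.68, 13.71 and 13.79 in KD3, and 13.70, 13.77 and 13.76 in KD4. JMJD6, a hydroxylase of lysines, rose by a log2 ratio of 0.57 in KD3 (adjusted p = 0.0024) and 0.95 in KD4 (adjusted p = 0.00014). Both genes were higher on every knock-down array than on any CTL array.

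STC1 and IGFBP3 were dim. STC1, a secreted hormone, was well above background on 3 CTL arrays, 0 KD3 arrays and 1 KD4 array, and was at least 2.45-fold lower in KD3 than in CTL (adjusted p = 0.00263). With normexp background correction the STC1 log2 ratio in KD3 was -0.23 (adjusted p = 0.024). IGFBP3, which binds insulin-like growth factors, was well above background on no KD3 array and was at least 2.34-fold higher in KD4 than in KD3 (adjusted p = 0.00468). With normexp background correction the IGFBP3 log2 difference between KD4 and KD3 was 0.24 (adjusted p = 0.0606).

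TXNIP and ARRDC4 are arrestin-like proteins that limit glucose uptake and are induced by glucose through the factor MondoA. TXNIP had CTL levels of 11.96, 11.96 and 12.46, KD3 levels of 10.70, 10.41 and 10.37, and KD4 levels of 9.99, 10.04 and 9.92. TXNIP fell to 0.323 of CTL in KD3 (log2 ratio -1.63, SE 0.146, adjusted p = 0.000188) and to 0.226 of CTL in KD4 (log2 ratio -2.14, SE 0.146, adjusted p = 3.85e-05). ARRDC4 fell by 0.91 log2 units in KD3 (adjusted p = 0.00325) and by 1.22 in KD4 (adjusted p = 0.000596). For both genes the 6 knock-down arrays lay below the 3 CTL arrays. By the adjusted methods' t-test neither gene passed. That test gave 0.0675 in KD3 and 0.0572 in KD4 for TXNIP, and 0.145 and 0.0925 for ARRDC4.

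**Figure D4:**
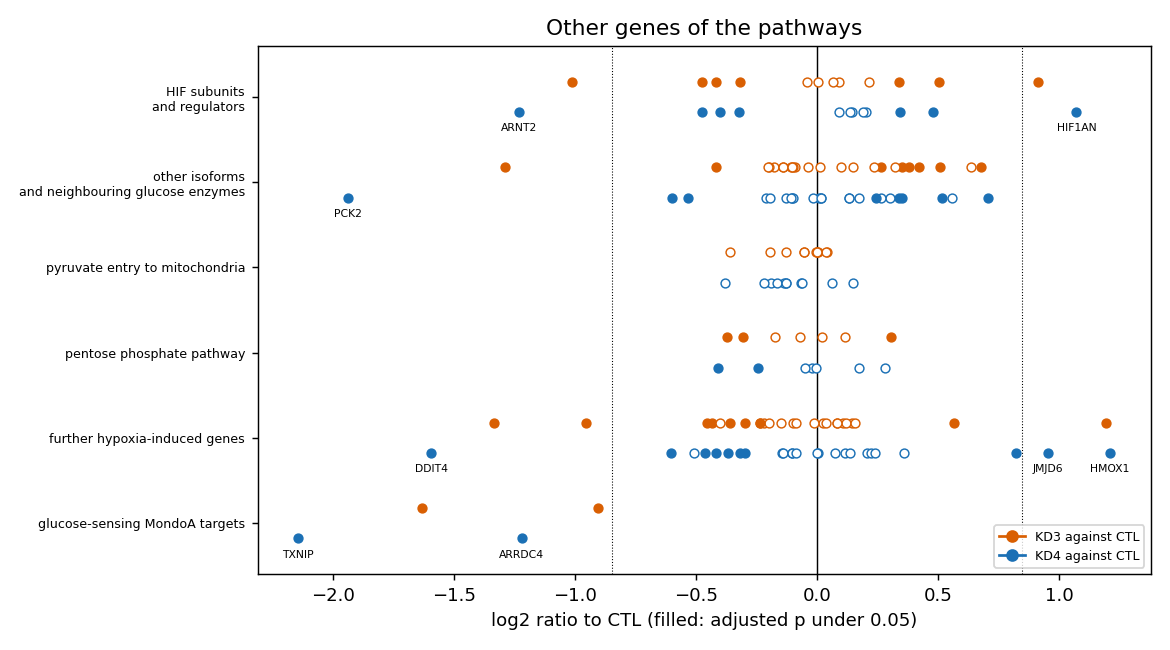
Log2 ratio in KD3 and KD4 against CTL of the tested genes of 6 further lists, a point per gene, filled where the adjusted p is under 0.05, with dotted lines at 1.8-fold. TXNIP and ARRDC4 lie to the left of the dotted line in both knock-downs, and the genes of pyruvate entry all have open points.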

How the data were processed

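RNA of KD3, KD4 and CTL cells was hybridised to 9 one-colour Agilent arrays. The authors deposited spot intensities from Agilent Feature Extraction 10.10.1.1 (a processed signal with the background taken off), and log2 values of all arrays, quantile normalized in GeneSpring, which served as an alternative. Their methods write quintile, which was read as quantile. Here control spots and outlier spots were left out (260 to 634 of 58717 spots), and quantile normalization was applied to the log2 processed signals (limma 3.58.1, R 4.3.3), which makes values relative to the array as a whole. Replicate spots were averaged, and of 42405 probes 21 lacking a value somewhere were dropped. A probe was tested if all arrays of some group had it well above background, which held for 32277. Probes were named through RefSeq accessions (25422 probes, assembly GRCh38.p14), and the brightest tested probe stood for a gene. Groups were compared with lmFit and eBayes over all 9 arrays, and p-values were adjusted over all tested probes. The fit was tested on simulated data. The number of arrays limits the precision.

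The members and lists were chosen with earlier results of these data known. Members were given in full when called in any comparison or when they had the smallest adjusted p of their role in KD3 or KD4, and pathway genes were named when called, or otherwise by the largest mean change of their list. Genes outside this rule are named with fewer values. The alternatives were the authors' log2 table, normexp background correction (offset 50), 75th percentile scaling, a looser and a tighter filter on dim probes, the methods' unequal-variance test unadjusted or adjusted, fits of the compared groups alone, every probe of a gene, blocks for slide or replicate number, and the omission of single arrays. Arrays of all 3 groups are on both of the 2 slides.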

Additional observations from a re-analysis of the deposited data

Results flagged for a closer look

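These genes differed between the 2 knock-downs by limma. GPD1L had a log2 difference, KD4 minus KD3, of -0.29 (adjusted p = 0.0437). DDIT4 was lower by -0.64 (adjusted p = 0.014), and its adjusted p was up to 0.0619 when any 1 KD4 array, KD3 replicate 1 or KD3 replicate 2 was left out, and 0.119 by the adjusted methods' t-test. IGFBP3 was higher in KD4 by 1.22 (adjusted p = 0.00468), with no KD3 array well above background, and its adjusted p was 0.0606 with normexp and 0.166 by the adjusted methods' t-test. SMCHD1, the targeted gene, was lower in KD4 by -0.56 (adjusted p = 0.0195), and its adjusted p was up to 0.0697 when KD3 replicate 1, KD3 replicate 3 or any 1 KD4 array was left out, and 0.184 by the adjusted methods' t-test.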

How the results depend on the processing

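No result changed direction past the threshold under any alternative that was run. With the adjusted methods' t-test the genes differing from CTL numbered 2 in KD3 and 6 in KD4. By that test 1 gene was called in KD3, where 1.23% of all genes were. With probes well above background on all arrays only, which drops GPD2, STC1 and IGFBP3, 1 gene was called in KD4, where 4.67% of all genes were. Between KD4 and KD3 the count was 0 with normexp, with no filter, with the adjusted t-test, with only the 2 groups compared, with the replicate block and with the slide as a block, and 4 with the unadjusted t-test.

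The median of the members in KD4 against CTL was -0.0846 with 75th percentile scaling, -0.0961 with normexp, -0.0875 with the authors' log2 values, and -0.1004 with either other filter on dim probes. In KD4 against KD3 it was -0.0324 with the authors' log2 values, -0.0079 with no filter and -8e-04 with the slide as a block. On slides 1 and 2 alone the median was -0.12 and -0.14 in KD3 and -0.13 and -0.09 in KD4.

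Leaving out 1 array gave 7 to 10 differing genes in KD3, 11 to 13 in KD4 and 0 between them, and 2 to 3 called in KD3, 2 to 3 in KD4 and 0 between them. The medians lay between -0.1362 and -0.0594, between -0.1347 and -0.0881, and between -0.0391 and -0.013.

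Same-numbered arrays of KD4 and CTL had correlated deviations of 0.128, 0.143 and 0.0744, each array correlating best with its own number, which is a hint from the data only. For KD3 and CTL the 3 values were below 0, and for KD4 and KD3 they were 0.143, -0.0504 and 0.0145, so that the numbers were not taken to pair the arrays. With the replicate block 8 genes differed in KD3 and 13 in KD4. BNIP3 in KD3 then had an adjusted p of 0.0594 and GPI in KD4 one of 0.0958, and between KD4 and KD3 it was 0.112 for GPD1L, 0.0544 for DDIT4 and 0.0692 for SMCHD1. No other tested member, and no other pathway gene named by the rule above, changed its side of the threshold with the block. The block was not examined for the remaining genes named, such as PGAM4, HIF1A, EPAS1 and the cell type markers. Naming probes by their GeneName column was not run, because the files used here hold no such column. Dim probes such as those of GPD2, STC1 and CA9 limit the folds that can be given, since a signal near background bounds a level from above only.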
